A study of Mus musculus with 20 samples.

Results

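The response of the wild type mouse liver to lipopolysaccharide was read from 10 of the 20 arrays of a series on mice with and without medium-chain acyl-CoA dehydrogenase. Its members were chosen by title: the 5 arrays titled Control + LPS were set against the 5 titled Control, and all 18193 named genes of the array were considered, of which 8774 were bright enough to test. Each array held liver RNA of 1 male wild type mouse of 50 to 60 days on a mixed BL6/SV129 background. The Control mice had received vehicle and the Control + LPS mice 100 µg of LPS per 20 g of body weight, and both groups were then fasted for 12 h before the liver was taken. All 10 livers are therefore fasted livers, the response is seen at a single time point, and only males were measured. The other 10 arrays, of mcad-/- mice (written MCAD-/- here) under the same 2 treatments, lent their spread to the statistical fit and are otherwise used only where the genotypes are compared. The labels name no batch, no handling day and no mouse that was used more than once.

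LPS is the outer membrane glycolipid of Gram-negative bacteria. Carried by LBP and CD14 to the receptor TLR4, it starts NF-kappaB signalling and, through another adaptor, type I interferon production in the macrophages and endothelial cells of the liver sinusoids. Hepatocytes then answer the released cytokines with the acute phase response: secretion of host defence proteins rises while bile acid, drug and nutrient metabolism is turned down.

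Values are deposited GCRMA intensities, in units that can be compared between mice for 1 probe set but not between genes. Differences are LPS minus vehicle on the log2 scale, written with the standard error (SE) of the limma fit, and adjusted p is the Benjamini-Hochberg value of that fit over 8774 tested genes. A gene was tested where it exceeded 16 units on at least 5 of the 20 arrays, and it passed where its adjusted p was below 0.05. A gene dim with vehicle reached the test only by being bright in another group, so in lists with many dim members, such as cytokines, chemokines and leukocyte markers, the share of tested members that rose was partly set by this filter. Values per mouse are listed in the order of the replicate numbers, which carry no ranking. GCRMA draws dim probe sets to a floor, so folds against a group whose 5 mice all lay under 16 units are given as "at least", with 16 units as the dim level. Where only some mice of a group lay under 16 units, the fold is as fitted and depends on that floor.

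The 2 groups lay apart on the first principal component and in the differences between arrays. On the first principal component, which held 78.6% of the variance of the 10 arrays, the 5 vehicle arrays lay between -54.1 and -46.6 and the 5 LPS arrays between 46.2 and 58.1. The SD of log2 differences between 2 arrays was 0.233 to 0.551 within vehicle, 0.327 to 0.577 within LPS and 1.06 to 1.28 between the groups. Vehicle replicate 3 and LPS replicate 4 had log2 ratios of 3.18 and 3.69 between the 3' and 5' probe sets of the actin control, a sign of RNA quality, against 1.35 to 2.13 on the other 8 arrays. Calls of single genes given below that rest on either mouse are given with that fact. Counts of lists can also shift without these mice, and not every such shift is given.

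Of 8774 tested genes, 5614 passed (64%): 3507 were higher with LPS (40.0%) and 2107 were lower (24%). With each array centred on its own median the split was 2760 higher and 2662 lower, since centring moved the median difference of all genes from 0.18 to 0.02, so the excess of rises depends on the scaling. At least 2-fold changes that passed were 1235 rises (14.1%) and 773 falls (8.81%), at least 8-fold changes 125 and 76, and at least 32-fold changes 38 and 8. All 5 LPS mice lay above all 5 vehicle mice in 2532 genes (28.9%) and below them in 1516 (17.3%). Every count of a gene group below is to be read against these shares and against the median log2 difference of 0.18 over all tested genes. Among the genes that passed, 1702 moved by less than 1.5-fold. For 1695 genes (19.3%) the 95% interval lay within 0.5 log2 units of no difference. The lists of genes are shown side by side in the plot of list shares.

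**Figure D1:**
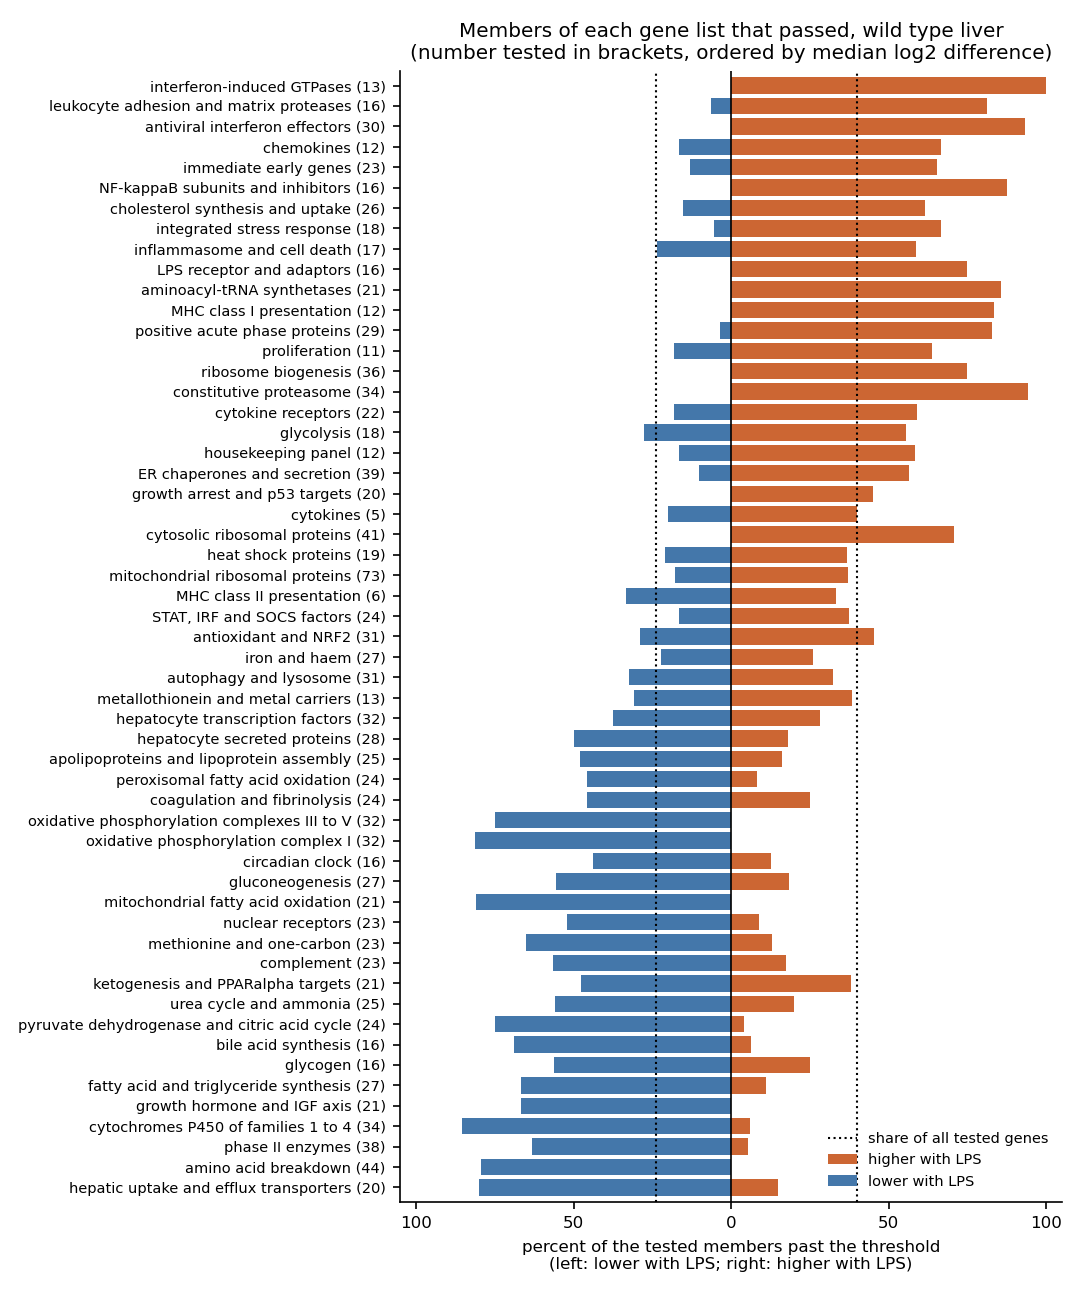
For each gene list, bars show the percent of its tested members that passed higher (right) or lower (left) with LPS in wild type liver; dotted lines mark the shares among all 8774 tested genes, 40.0% higher and 24% lower. Lists of interferon-induced genes and proteasome subunits fill with rises, and lists of amino acid breakdown, cytochromes P450 and transporters fill with falls.

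The largest rises included genes of interferon defence and genes of no immune name. Gbp2b, a guanylate-binding GTPase that attacks vacuoles of intracellular microbes, was at 4.33, 3.10, 4.48, 2.56 and 3.01 units in the vehicle mice and at 1798, 734, 1762, 1491 and 678 units in the LPS mice. Every vehicle mouse was under the floor and every LPS mouse far above it, a rise of at least 74.1-fold (log2 difference 8.44 ± 0.28, adjusted p 4.92e-15). Ubd, which encodes the ubiquitin-like tag FAT10, went from 3.23 to 297 units on average, at least 18.6-fold. Cpne8, a calcium-dependent membrane-binding copine, was at 9.53, 7.89, 4.85, 10.7 and 6.07 units with vehicle and at 727, 824, 733, 1165 and 733 units with LPS. The groups did not overlap, and the rise was at least 51.3-fold. Gbp2, a relative of Gbp2b, rose at least 48.6-fold. Crybb3, which encodes a lens crystallin, rose at least 35.7-fold, Bmper, a secreted regulator of BMP signalling, at least 17.2-fold, and Slc13a5, the hepatocyte citrate carrier, at least 23.2-fold. Syt12, a synaptotagmin, rose at least 13.3-fold, with LPS mice at 207, 193, 223, 309 and 159 units. Slfn4, a Schlafen family gene of myeloid cells, rose at least 12.6-fold.

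The largest falls included genes of hepatocyte signalling and metabolism, and also Vsig4, a Kupffer cell gene, and Myom2, a muscle gene, which are described further on. Klb, which encodes beta-klotho, the co-receptor through which hepatocytes sense FGF15, was at 151, 232, 188, 215 and 182 units with vehicle and at 4.23, 4.53, 2.93, 3.29 and 3.64 units with LPS. All 5 LPS mice were under the floor, a fall of at least 12.0-fold (log2 difference -5.71 ± 0.15, adjusted p 2.92e-16). Keg1, a glycine N-acyltransferase-like gene, was at 651, 1076, 1095, 1005 and 928 units with vehicle and at 52.0, 104, 14.9, 4.75 and 5.30 units with LPS. LPS replicates 1 and 2 kept more of it than the other 3, although the groups did not overlap. Rgs16, a brake on G protein signalling, fell from 909.7 to 20.1 units on average, with LPS replicates 3 and 4 under the floor. Upp2, a uridine phosphorylase, fell 24.3-fold, from 2674 to 110.0 units. Etnppl, which breaks down phosphoethanolamine and marks periportal hepatocytes, fell 31.7-fold. Syt1, a synaptotagmin like the gene that rose, moved the other way: vehicle mice were at 154, 125, 125, 126 and 127 units and LPS mice at 9.43, 9.13, 7.57, 7.51 and 9.02 units, a fall of at least 8.18-fold with little spread in either group.

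In all, 269 genes were under 16 units in all 5 vehicle mice and over it in all 5 LPS mice, and 87 did the reverse. The first kind includes Cd14, Gbp2b, Cpne8 and Crybb3 and the second Hsd3b5, Klb and Car14. Car14, a membrane carbonic anhydrase, fell at least 14.9-fold, and its mitochondrial relative Car5a, which supplies bicarbonate for urea synthesis, fell 24.2-fold as fitted, from 830.5, 762, 596, 739 and 790.4 units to 42.2, 44.5, 10.2, 59.7 and 23.1 units.

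**Figure D2:**
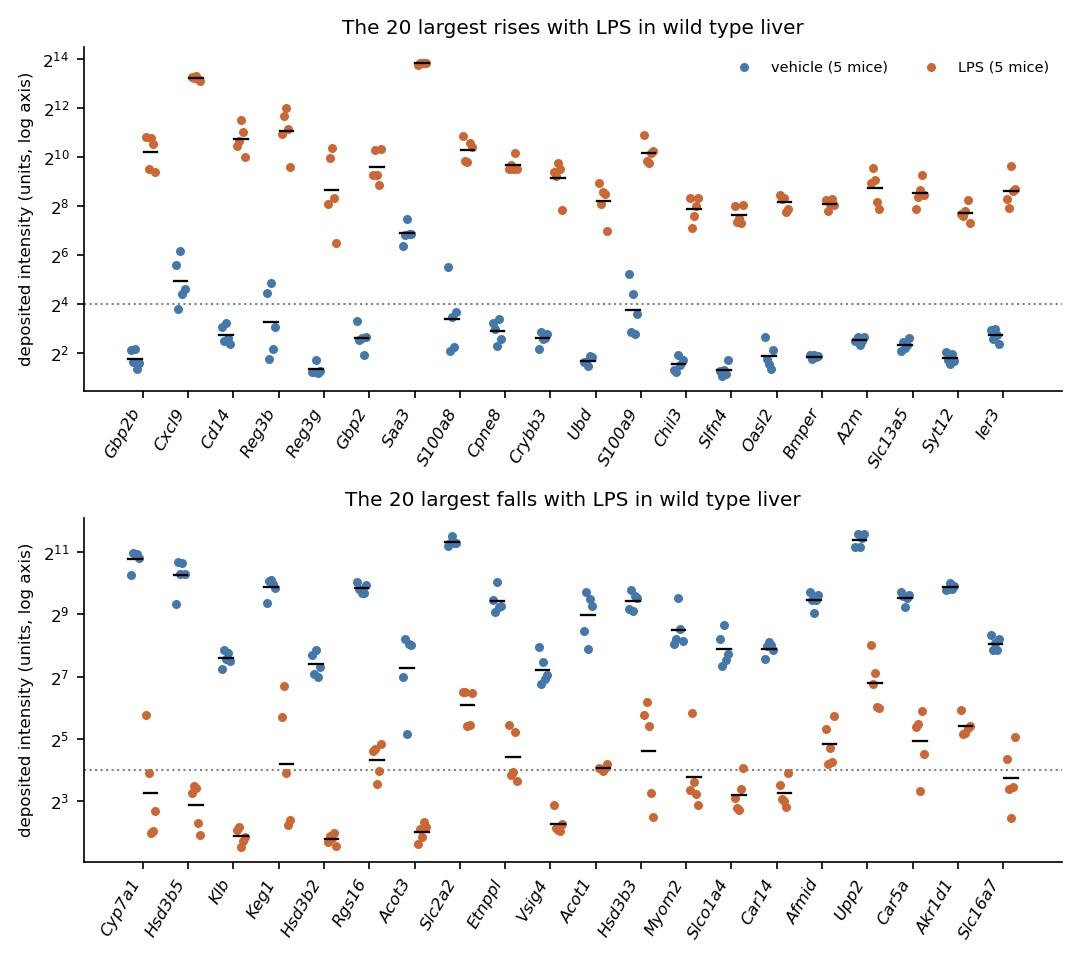
Intensity of each mouse on a log axis for the 20 largest rises (top) and 20 largest falls (bottom) among genes whose groups did not overlap; blue points are the 5 vehicle mice, orange points the 5 LPS mice, black lines the means of log2 values and the dotted line 16 units. For most of the rises all 5 vehicle mice lie under the dotted line, as for Gbp2b at 2.56 to 4.48 units.

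Markers of blood leukocytes moved with LPS and are given before the gene groups that such cells also express. All 7 tested of 18 neutrophil markers were higher (median log2 difference 3.61), and 5 of 6 tested monocyte and dendritic cell markers were (3.21). Without the filter on dim genes, 12 of 15 neutrophil markers on the array were higher (median 1.38), and 5 of 14 monocyte and dendritic cell markers (median 0.010), so the medians of tested markers lean on the bright ones. The mean log2 level over the 15 neutrophil markers on the array was 2.93 to 3.45 in vehicle mice and 5.18 to 5.63 in LPS mice. Hdc, the histamine-forming enzyme of granulocytes, was at 10.9, 9.59, 7.18, 9.01 and 6.07 units with vehicle and at 132, 96.6, 177, 132 and 99.6 units with LPS. Ngp, a neutrophil granule protein, rose at least 3.47-fold and Mmp8, the neutrophil collagenase, at least 2.01-fold. The granule genes Mpo, Elane, Camp and Ltf and the receptor Cxcr2 stayed under 16 units in all 10 mice. Chil3, a secreted chitinase-like protein of myeloid cells, was at 2.52, 2.38, 3.80, 2.84 and 3.28 units with vehicle and 326, 139, 194, 258 and 324 units with LPS, at least 14.8-fold. Its rise was the largest of the monocyte list, followed by Ms4a4c (at least 5.08-fold) and Plac8 (13.1-fold). Of the 16 T and NK cell markers on the array, Ccl5 alone was bright enough to test, and Cd3d, Cd3e, Ncr1 and Nkg7 averaged under 16 units in both groups. In liver RNA, fewer cells of a type and less RNA per cell cannot be told apart, and this holds for every gene below. The part of incoming cells in the rises that follow was not tested.

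Resident macrophages showed the opposite balance, with 9 of 15 tested Kupffer cell and macrophage markers lower, 1 higher and a median of -0.79. Vsig4, the complement receptor by which Kupffer cells catch bacteria, was at 247, 108, 177, 121 and 133 units with vehicle and at 7.36, 4.42, 4.26, 4.18 and 4.81 units with LPS. No LPS mouse reached the floor, a fall of at least 9.37-fold (log2 difference -4.94 ± 0.22, adjusted p 4.88e-13). The haemoglobin scavenger receptor Cd163 fell at least 5.44-fold and the Kupffer lectin Clec4f fell 8.73-fold, from 284 to 32.5 units. Marco, a scavenger receptor for bacteria, was the 1 member that rose, from 4.07, 6.66, 7.85, 5.47 and 6.401 units to 302, 177, 175, 276 and 221 units, at least 14.0-fold. Adgre1, the F4/80 antigen, was at 41.9, 34.2, 57.9, 35.7 and 31.5 units and 63.4, 48.9, 45.1, 39.3 and 28.0 units. These groups overlapped, and Adgre1 did not pass (log2 difference 0.14 ± 0.25, adjusted p 0.63), nor did Lyz2 (0.22 ± 0.28, adjusted p 0.499). Members of 1 marker list therefore moved in both directions or did not pass.

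Sinusoidal endothelial markers were higher in 6 of 17 (35.3%) and lower in 4 (23.5%), near the 40.0% and 24% of all tested genes. With arrays centred on the median 5 of these endothelial markers were higher and 5 lower. Clec4g, a lectin of these cells, fell from 261, 147, 228, 175 and 189.9 units to 24.2, 18.1, 8.37, 11.4 and 15.9 units. Lyve1, the hyaluronan receptor of the same cells, rose from 69.0, 22.97, 69.0, 15.7 and 31.8 units to 312, 237, 229, 296 and 425 units. The pair lay apart in opposite directions, with log2 differences of -3.75 ± 0.24 (adjusted p 9.68e-11) and 3.05 ± 0.32 (adjusted p 1.18e-07). Of 14 tested stellate cell markers, 4 were lower and 2 higher, and 3 and 3 without both mice of high actin ratio. Colec11, a soluble collectin, fell 7.22-fold, Reln, the extracellular protein reelin, fell 2.38-fold, and the growth factor receptor Pdgfrb rose 1.65-fold. Hepatocyte markers fell in 8 of 12 by small amounts (median -0.32), and this count dropped to 4 without vehicle replicate 4, to 5 without vehicle replicate 5 and to 5 with the wild type arrays fitted alone. Periportal markers fell in 9 of 12 (median -0.83) and pericentral ones in 10 of 15 (-0.67), so both ends of the lobule were represented among the falls.

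**Figure D3:**
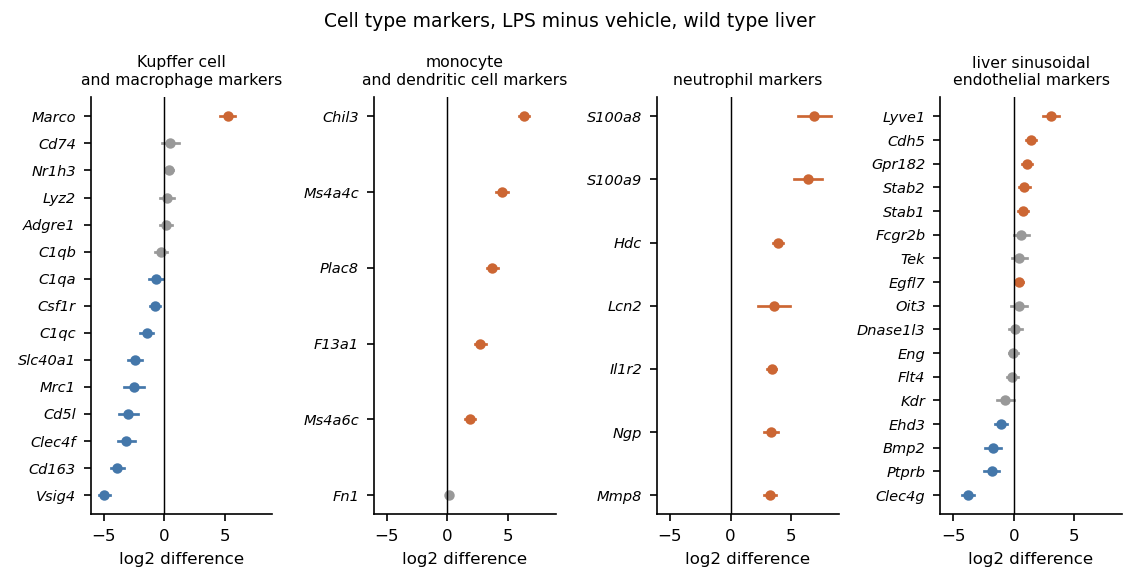
Log2 difference (LPS minus vehicle) with its 95% interval for the tested markers of 4 cell types; 0 means no difference. The 7 tested neutrophil markers lie on the side of rises, from Mmp8 at 3.25, whereas Kupffer cell and sinusoidal endothelial markers lie on both sides, from Vsig4 at -4.94 to Marco at 5.24.

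Genes of LPS recognition rose in 12 of 16 tested and fell in 0 (median 0.95). Lbp, the plasma protein that hands LPS to CD14, was at 2011, 1836, 954, 1705 and 1894 units with vehicle and at 3256, 3496, 3554, 3459 and 3366 units with LPS. The groups were apart and the LPS mice were close together (log2 difference 1.07 ± 0.17, adjusted p 1.97e-05). Cd14, the membrane co-receptor, was at 8.47, 5.71, 9.30, 6.20 and 5.18 units with vehicle and at 1413, 1613, 2978, 2103 and 1018 units with LPS, at least 107-fold. Tlr4, the receptor itself, stayed at 6.77, 4.46, 6.53, 5.40 and 4.59 units and 6.06, 6.08, 5.24, 5.68 and 7.599 units, under the floor in all 10 mice, and was not tested. Tlr2, the receptor of bacterial lipopeptides, rose at least 2.63-fold, to 40.1, 44.2, 33.7, 36.2 and 60.8 units. The adaptor Myd88 rose 2.96-fold and Ly96, the MD-2 subunit that binds the lipid, rose 2.22-fold, with vehicle replicate 3 inside the range of the LPS mice for Ly96. Irak3, which blocks receptor signalling in tolerised macrophages, rose at least 2.47-fold, and Acod1, which makes the antibacterial metabolite itaconate in macrophages, went from 3.84 to 15.2 units.

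NF-kappaB subunits and their inhibitors rose in 14 of 16 tested and fell in 0 (median 1.06, 13 of 16 after median centring). The 3 largest rises without overlap were of inhibitors. Tnfaip3, the ubiquitin-editing brake A20, was at 5.14, 4.92, 4.99, 3.49 and 4.55 units with vehicle and at 46.6, 33.2, 37.6, 51.1 and 42.6 units with LPS, at least 2.61-fold. Nfkbie, which encodes IkappaB-epsilon, rose at least 3.24-fold, and Tnip1, a partner of A20, rose 5.13-fold, from 41.7, 34.9, 28.2, 38.6 and 38.1 units to 188, 173, 156, 206 and 205 units. None of these groups overlapped. Nfkbia, the classical inhibitor IkappaB-alpha, moved from 1406, 1607, 1356, 1570.5 and 1458 units to 2105, 1742, 2343, 2821 and 2391 units (log2 difference 0.61 ± 0.12, adjusted p 0.000223), and of its 5 tested probe sets 1 passed. The subunit Rela rose 1.96-fold.

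Few cytokine transcripts could be measured after the 12 h fast. Of 23 cytokines, 17 stayed under 16 units in all 10 mice, among them Tnf at 5.21, 5.01, 5.47, 5.87 and 6.60 units and Il6 at 6.43, 6.18, 5.95, 5.94 and 6.05 units in the LPS mice, and 5 were tested, of which 2 rose and 1 fell (5 and 3 of 22 without the filter on dim genes). Il33, a nuclear alarmin, was at 6.39, 7.15, 8.53, 5.88 and 7.45 units with vehicle and at 215, 89.7, 504, 330.1 and 87.0 units with LPS. The rise of at least 12.2-fold varied among LPS mice, with replicates 2 and 5 lowest. Il1b rose from 4.27, 4.69, 5.37, 5.52 and 5.85 units to 40.6, 21.6, 15.3, 19.0 and 27.2 units, a low level with at least 1.46-fold. Il18, which hepatocytes and Kupffer cells hold in store, fell from 188, 215, 240.4, 203 and 205 units to 81.4, 58.0, 71.4, 74.7 and 51.2 units (log2 difference -1.66 ± 0.15, adjusted p 1.94e-08). Neutrophil markers rose too, while most tested Kupffer cell and macrophage markers fell, and the part of these cells was not tested.

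Receptors of cytokines moved in both directions. Osmr, the oncostatin M receptor subunit, was at 12.8, 6.999, 20.3, 6.54 and 9.32 units with vehicle and at 150.2, 151, 208, 259 and 207 units with LPS, a rise of 18.7-fold as fitted. Lifr, the LIF receptor subunit that competes for the same gp130 partner, went from 1283, 2525, 1399, 2296 and 2086 units to 534, 922, 739, 288 and 365 units. The fall of Lifr and the rise of Osmr were both larger than the spread between mice, at -1.83 ± 0.34 (adjusted p 9.05e-05) and 4.23 ± 0.26 (adjusted p 5.67e-11). Il6ra, which binds interleukin 6, fell from 191, 147, 101, 125 and 243 units to 15.8, 33.9, 51.5, 51.7 and 99.4 units, so that the highest LPS mouse lay just under the lowest vehicle mouse. Il1r2, the decoy receptor for interleukin 1 that neutrophils also carry, rose at least 3.95-fold. Of the 22 tested receptors in all, 13 rose and 4 fell.

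Chemokines rose in 8 of 12 tested and fell in 2 (4 after median centring), with a median of 1.42. Without the filter on dim genes 14 of 29 rose and 3 fell (median 0.26), and 14 of the 30 listed stayed under the floor. Cxcl9, an interferon-gamma target that draws T cells, was at 49.1, 13.9, 72.7, 21.3 and 24.7 units with vehicle and at 10039, 9710.2, 10286, 9321 and 8945 units with LPS. The vehicle mice varied over a wide range while the LPS mice were close together (log2 difference 8.31 ± 0.43, adjusted p 4.18e-12). Its relative Cxcl10 rose at least 4.55-fold, with LPS mice at 151, 77.7, 79.7, 42.0 and 52.0 units. Cxcl13, which draws B cells, rose from 5.46, 4.82, 6.20, 3.49 and 4.18 units to 386, 219, 118, 139 and 243 units. Cxcl12, the homeostatic chemokine that retains leukocytes and stem cells, fell from 942, 1032, 759, 888 and 989 units to 486, 545, 279, 298 and 324 units, and Ccl27a fell 4.24-fold. Among adhesion molecules and matrix proteases 13 of 16 rose and 1 fell (median 1.60), and 20 of 27 rose without the filter (median 1.15): Icam1, the endothelial ligand of leukocyte integrins, rose from 46.2, 16.5, 14.0, 18.1 and 26.2 units to 222, 195, 246, 316 and 319.7 units. Timp1, an inhibitor of matrix proteases, rose at least 3.85-fold. Vcam1 went from 70.6, 53.4, 104.7, 43.3 and 57.6 units to 129, 85.6, 79.3, 71.3 and 86.8 units, and these groups overlapped (log2 difference 0.49 ± 0.21, adjusted p 0.0476). Vcam1 lost its call in 11 of 20 alternative settings, 7 of which leave out 1 mouse (any but vehicle replicate 3, vehicle replicate 1 or LPS replicate 4), with adjusted p up to 0.157.

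Letters of the NF-kappaB motif were looked for in the promoters of these genes, taken from RefSeq on GRCm38.p6. Each promoter was 300 bases, 250 before and 50 after 1 transcription start per gene, and other starts of a gene were not searched. The motif was searched as GGNNTTTCC or GGNNTTCCC on both strands; the 2 forms can overlap each other. Either form stood in 10.7% of 27025 promoters, in 12.1% of the 7211 tested genes with a promoter, in 14.1% of the genes at least 2-fold higher and in 9.48% of those at least 2-fold lower. It stood in 6 of 13 promoters of the NF-kappaB list, 6 of 13 of the LPS recognition list and 4 of 9 of the chemokine list. Lists that mostly fell held it too, in 3 of 9 promoters of bile acid synthesis and 5 of 20 of peroxisomal fatty acid oxidation. It stood in 1 of 27 promoters of cytochromes P450, which fell, and in 2 of 21 of antiviral effectors, which rose. The run was thus not particular to lists that rose. A match is a run of letters and no measured binding site. Stretches shown here and below are examples, picked among list members that rose and whose match lay before the start. The following 60-base stretches, written in the direction of transcription with the match in capitals, show it for a chemokine, an early response gene, a brake on signalling and a receptor that rose.
Cxcl9 at chr5:92328087-92328146, minus strand: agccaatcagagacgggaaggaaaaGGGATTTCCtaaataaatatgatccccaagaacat
Ier3 at chr17:35821596-35821655, plus strand: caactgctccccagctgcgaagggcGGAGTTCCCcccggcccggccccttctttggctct
Irak3 at chr10:120201759-120201818, minus strand: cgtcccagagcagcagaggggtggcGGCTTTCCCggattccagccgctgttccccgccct
Tlr2 at chr3:83841745-83841804, minus strand: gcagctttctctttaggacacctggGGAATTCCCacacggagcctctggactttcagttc

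Interferon-induced genes rose almost without exception. All 13 tested guanylate-binding and immunity-related GTPases rose, 12 of them without overlap between groups (median 1.90), and 28 of 30 antiviral effectors did, 27 without overlap (1.57). After median centring the counts were 12 and 25. Gbp3 rose from 27.9, 15.4, 16.5, 12.7 and 18.7 units to 879, 585, 1009.9, 773 and 680.2 units. Iigp1, an immunity-related GTPase, was bright with vehicle already, at 5651, 3963, 4533, 4017 and 4830.2 units, and reached 5375, 6062, 7168, 5422 and 6128 units with LPS. Its groups overlapped at a log2 difference of 0.40 ± 0.14 (adjusted p 0.0161), the smallest of the GTPases, and the call was lost without LPS replicate 3 and after median centring (adjusted p 0.0501 to 0.155). Oas1a, which senses viral double-stranded RNA, rose from 38.7, 24.4, 13.7, 17.3 and 25.8 units to 897, 694, 769, 1151 and 423 units. Its relative Oasl2 rose at least 17.8-fold, and Zbp1, a sensor of Z-form nucleic acid that can trigger necroptosis, at least 19.6-fold.

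Of the factors that carry the interferon and cytokine signals, 9 of 24 tested rose and 4 fell (median 0.11). These shares, 37.5% and 16.7%, were no larger than the 40.0% and 24% of all tested genes. Irf7, the amplifier of type I interferon, was at 31.4, 17.6, 17.6, 15.1 and 18.5 units with vehicle and at 638, 558, 632, 848 and 627 units with LPS, without overlap (log2 difference 5.08 ± 0.18, adjusted p 1.25e-14). Irf8, a factor of myeloid cells, rose 3.00-fold and Irf1 rose 1.74-fold. Socs3, the feedback inhibitor of interleukin 6 signalling, was at 564, 137, 157, 145 and 274 units with vehicle and 1263, 1168, 1457, 1035 and 1198 units with LPS. Vehicle replicate 1 was the highest of its group, yet below every LPS mouse (log2 difference 2.49 ± 0.31, adjusted p 1.04e-06). Cish, the SOCS protein induced by growth hormone, went the other way, from 87.5, 21.6, 46.2, 24.5 and 50.2 units to 14.3, 13.1, 14.6, 17.8 and 11.9 units. Stat3 was at 1113, 710.1, 319, 637 and 1097 units and 551, 728, 1156, 604 and 1236 units, with groups that overlapped (log2 difference 0.20 ± 0.29, 95% interval -0.41 to 0.80, adjusted p 0.569).

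The interferon-type motif, searched as GAAANNGAA on both strands in the same promoters, stood in 8.57% of all promoters and in 6.98% of those of tested genes. It stood in 9.36% of genes at least 2-fold higher, 6.99% of genes at least 2-fold lower, 7 of 8 GTPase promoters and 11 of 21 antiviral effector promoters. It can overlap the STAT-type run TTCNNNGAA, which stood in 8.47% of all promoters and in 8 of 21 of the antiviral effectors. The stretches below show where the match lies in 3 guanylate-binding proteins that neighbour each other on chromosome 3 and in Oas1a.
Gbp2b at chr3:142594686-142594745, plus strand: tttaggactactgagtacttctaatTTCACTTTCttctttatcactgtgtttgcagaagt
Gbp2 at chr3:142620580-142620639, plus strand: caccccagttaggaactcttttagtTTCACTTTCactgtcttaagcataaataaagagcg
Gbp3 at chr3:142559981-142560040, plus strand: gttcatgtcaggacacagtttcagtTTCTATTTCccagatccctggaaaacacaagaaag
Oas1a at chr5:120907526-120907585, minus strand: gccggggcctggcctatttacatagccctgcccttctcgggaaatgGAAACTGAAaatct

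**Figure D4:**
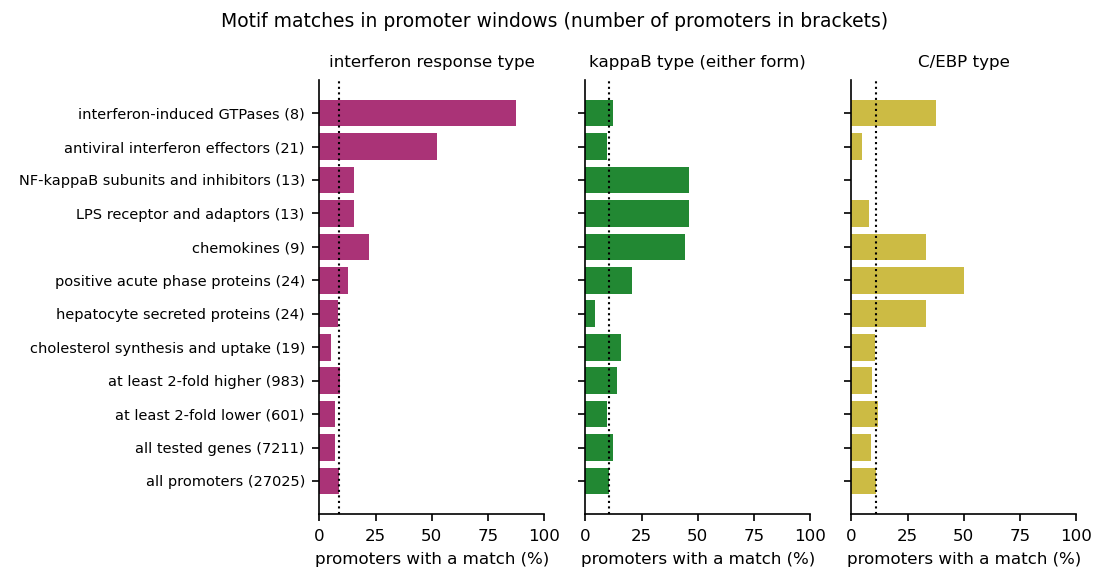
Percent of promoters (300 bases around the start) that hold the interferon-type, kappaB or C/EBP run of letters, for all RefSeq mouse promoters, for tested genes and for gene lists. The interferon-type run stands in 7 of 8 GTPase promoters against 8.57% of all promoters.

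The machinery that cuts and presents peptides rose together with these genes. All 4 tested immunoproteasome subunits rose (median 2.00), and so did 32 of 34 subunits of the constitutive proteasome, by less (median 0.67, 27 after median centring). Psmb8, a catalytic subunit swapped in under interferon, was at 80.8, 117, 64.6, 104 and 117 units with vehicle and at 661, 668, 622, 749 and 643 units with LPS. Psmc4, a regulatory ATPase, rose from 336, 418, 336, 362 and 359 units to 855, 820.1, 793, 1156 and 847 units. Neither gene's groups overlapped, and the log2 differences were 2.83 ± 0.14 (adjusted p 2.29e-12) and 1.29 ± 0.12 (adjusted p 1.99e-08). Of class I presentation genes 10 of 12 rose: Tap1, a peptide pump, rose 4.77-fold, whereas B2m, the invariant light chain, was at 7610.4, 7730.0, 7929, 7419.9 and 7589 units and 8534, 7452, 8163, 5517 and 7235 units and did not pass (log2 difference -0.07 ± 0.12, adjusted p 0.634). Of 6 class II genes 2 rose and 2 fell. Among them H2-Aa fell from 91.3 to 59.8 units and its partner chain H2-Ab1 rose from 24.9 to 40.3 units, with overlapping groups in both. These 2 calls were lost in 7 and 10 of 20 alternative settings, with adjusted p up to 0.317 and 0.154, and leaving out vehicle replicate 3 or LPS replicate 1 ended both. Vehicle replicates 1 and 5 and LPS replicate 5 did so for H2-Aa alone, and vehicle replicates 2 and 4 and LPS replicates 2 and 4 for H2-Ab1 alone.

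Cell death genes moved in both directions, 10 of 17 up and 4 down. Mlkl, the executioner of necroptosis, was at 14.7, 10.3, 8.07, 8.44 and 9.17 units with vehicle and at 182, 207, 225, 208 and 158 units with LPS, at least 12.2-fold. Gsdmd, the pore protein of pyroptosis, rose from 58.6, 59.9, 46.6, 64.2 and 55.1 units to 369, 405, 376, 419 and 280.5 units. Bcl2l11, the apoptosis promoter BIM, fell from 63.6, 118, 106, 99.3 and 91.0 units to 14.6, 11.9, 10.7, 17.99 and 37.5 units. No group overlapped for these 3 genes, and their log2 differences were 4.30 ± 0.19, 2.69 ± 0.17 and -2.50 ± 0.35.

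Acute phase proteins rose in 24 of 29 tested and fell in 1 (median 0.83, 19 after median centring). A2m, the protease trap alpha-2-macroglobulin, was at 5.64, 6.28, 5.05, 5.62 and 6.34 units with vehicle and at 501, 746, 542, 290.0 and 234 units with LPS. Lcn2, which withholds iron siderophores from bacteria, was at 2330.1, 847, 727, 802 and 1428 units and 13015, 13983, 13387, 12800.0 and 14265 units. Saa1, a serum amyloid A, was at 17409, 12345, 10688, 12443 and 15535 units with vehicle and at 22346, 23053, 22565, 22875 and 22496 units with LPS. All 3 rose without overlap, with log2 differences of 0.75 ± 0.30 (adjusted p 0.0345) for Saa1 and 3.61 ± 0.64 (adjusted p 6.14e-05) for Lcn2. A2m, under the floor in every vehicle mouse, rose at least 26.5-fold (adjusted p 7.39e-09). The call of Saa1 was lost in 12 of 20 alternative settings, among them leaving out any 1 of the LPS mice or vehicle replicate 2, 3 or 4, with adjusted p up to 0.108. Saa2 rose 3.56-fold, Orm2, an orosomucoid, 8.96-fold, and haptoglobin, Hp, 1.32-fold, from 13645, 12252, 11617, 12518 and 12818 units to 16313, 16731, 16169, 16565 and 16905 units. Vehicle replicates 1 and 5 were the 2 highest of the vehicle mice for Saa1, Saa2, Lcn2 and Orm2. The LPS mice lay close together at bright levels for Saa1, Lcn2 and Hp, and whether such bright signal understates a rise was not tested. Near-identical copies in the Saa, Orm and Reg3 families may share probe signal, so the split between such members is uncertain. Reg3g, an antibacterial lectin, was at 2.38, 2.33, 3.34, 2.31 and 2.42 units with vehicle and at 273, 1008, 1348, 322 and 89.4 units with LPS, and its LPS mice were spread from 89.4 to 1348 units.

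Hepcidin, Hamp, which lowers plasma iron in inflammation, did not pass. It was at 11502, 7261, 9931, 7624 and 9372 units with vehicle and at 5059.7, 4589.8, 4223, 5390.3 and 7996 units with LPS. The groups overlapped (log2 difference -0.76 ± 0.73, 95% interval -2.29 to 0.76, adjusted p 0.372). With the wild type arrays fitted alone Hamp passed as lower (adjusted p 0.0037). Its target Slc40a1, the iron exporter ferroportin, fell from 1163, 1297, 1556, 1269 and 1259.9 units to 323, 273, 149, 230.3 and 288 units, and this gene is also a Kupffer cell marker. Tmprss6, a protease that restrains hepcidin, fell 2.50-fold. Slc11a2, an iron importer, rose from 24.9, 27.5, 23.2, 22.1 and 22.7 units to 134, 123, 191, 138 and 94.5 units, and the metalloreductase Steap4 rose 4.13-fold. The zinc importer Slc39a8 fell 2.53-fold and the manganese exporter Slc30a10 rose 2.93-fold.

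Other secreted proteins of the hepatocyte fell in 14 of 28 tested and rose in 5 (median -0.21). Albumin, Alb, at 21716, 19801, 21855, 20879 and 20505 units with vehicle and 19143, 18624, 19177, 18716 and 19865 units with LPS, did not pass (log2 difference -0.13 ± 0.07, adjusted p 0.0966), and passed as lower after median centring. Igfals, the subunit that keeps IGF1 in plasma, fell from 128, 226, 110.3, 189 and 208 units to 15.6, 15.2, 13.5, 12.8 and 14.0 units, at least 10.4-fold. Complement genes fell in 13 of 23 and rose in 4 (2 after median centring). C9, a pore subunit, fell 2.11-fold, C1qc, a macrophage product, fell 2.76-fold, and Cd55, which protects host cells from complement, rose 4.78-fold. In coagulation 11 of 24 fell and 6 rose (13 and 2 after median centring). Klkb1, plasma prekallikrein, fell from 1512, 1670.2, 1952, 1564 and 1643 units to 135, 137, 60.8, 98.7 and 128 units (log2 difference -3.95 ± 0.27, adjusted p 2.28e-10). Serpind1, the thrombin inhibitor heparin cofactor II, fell from 2868, 2812, 2739, 2762 and 2785 units to 720.4, 711, 497, 432 and 367 units. Procr, the endothelial protein C receptor, rose from 5.73, 5.96, 8.34, 7.48 and 5.87 units to 121, 73.6, 102, 101 and 158 units, and its partner Thbd, thrombomodulin, rose at least 4.27-fold.

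C/EBP factors bind acute phase genes, and their run of letters was searched as TTNNGCAA on both strands. It stood in 10.8% of all promoters, 8.61% of those of tested genes, 12 of 24 of acute phase genes, 8 of 24 of other secreted proteins and 7 of 20 of coagulation genes. Promoters of genes at least 2-fold higher held it in 9.26% and those of genes at least 2-fold lower in 12.0%. Cebpd rose 2.15-fold, from 221, 243, 204, 199.8 and 231 units to 429.9, 459, 555, 597 and 358 units, and Cebpa fell from 1179.9, 906, 1200.5, 921 and 1104 units to 563, 639.8, 669, 902 and 586 units. Cebpb, at 1369, 1449.8, 840.4, 1284 and 1701 units and 1062, 1129, 1493, 1593 and 1384 units, did not pass (log2 difference 0.02 ± 0.15, adjusted p 0.902). The stretches below show the match for 4 acute phase genes that rose.
Saa3 at chr7:46715742-46715801, minus strand: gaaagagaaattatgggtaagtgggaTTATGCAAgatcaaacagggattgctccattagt
Lcn2 at chr2:32387922-32387981, minus strand: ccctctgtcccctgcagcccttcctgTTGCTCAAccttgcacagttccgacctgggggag
Orm2 at chr4:63362303-63362362, plus strand: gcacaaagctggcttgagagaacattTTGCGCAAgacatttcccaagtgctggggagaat
Saa2 at chr7:46751624-46751683, plus strand: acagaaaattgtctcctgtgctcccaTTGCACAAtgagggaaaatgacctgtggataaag

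Nuclear receptors fell in 12 of 23 tested and rose in 2 (1 after median centring; median -0.49). Nr1i3, the drug sensor CAR, was at 595, 524, 345, 542 and 572 units with vehicle and at 72.2, 148, 49.4, 97.3 and 186 units with LPS. Its groups were apart, with LPS mice spread between 49.4 and 186 units (log2 difference -2.35 ± 0.44, adjusted p 0.00012). Nr1h4, the bile acid receptor FXR, fell from 995, 722, 895, 704 and 833 units to 409, 522, 348, 395 and 659 units, and Ppara, the fasting lipid sensor, from 1365, 1370.1, 888, 1272 and 1375 units to 626, 808, 812, 592 and 947 units. Vehicle replicate 3, the mouse with the high actin ratio, was the lowest vehicle mouse for Nr1i3 and Ppara and the only one inside the LPS range for Ppara. Rxra, the shared partner of these receptors, was at 861, 736, 412, 708 and 905 units and 455, 502, 569, 741 and 528 units and did not pass (adjusted p 0.0869). It passed as lower without vehicle replicate 3 or LPS replicate 4, with adjusted p no higher than 0.028 in the 5 alternative settings where it did. Hnf4a, at 2823, 2545, 2814, 2642 and 2620.5 units and 2221, 2318, 2613, 2912 and 2910.3 units, did not pass either, with a 95% interval of -0.31 to 0.19. Onecut2, a hepatocyte factor, fell 2.46-fold and Klf6 rose 4.60-fold.

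Transporters of the hepatocyte membrane fell in 16 of 20 tested and rose in 3 (1 after median centring; median -1.54). Slc10a1, the sodium-driven bile acid importer NTCP, was at 5859, 5733, 5885, 6122 and 5707 units with vehicle and at 1173, 1037, 464, 481 and 940.2 units with LPS. Slco1a4, an organic anion importer, fell from 293, 163, 403, 184 and 214 units to 8.69, 6.97, 6.61, 10.5 and 16.7 units. Abcg8, a subunit of the pump that moves sterols into bile, fell from 214, 305, 173, 288 and 285 units to 40.7, 25.2, 23.995, 44.4 and 35.5 units. None of these groups overlapped (log2 differences -2.94 ± 0.25, -4.67 ± 0.27 and -2.91 ± 0.21, adjusted p 4.27e-09, 2.31e-11 and 7.23e-10). Abcb11, the bile salt export pump, fell 4.08-fold. Abcb1b, a drug efflux pump, passed as higher with LPS mice at 109, 78.3, 14.1, 7.17 and 36.7 units, 2 of them within the vehicle range.

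Bile acid synthesis fell in 11 of 16 tested and rose in 1 (0 after median centring, and 0 without both mice of high actin ratio). Cyp7a1, the first and limiting enzyme, was at 1236, 2006, 1972, 1945 and 1787 units with vehicle and at 54.3, 14.999, 3.95, 4.11 and 6.47 units with LPS. LPS replicate 1 kept the most and replicates 3 and 4 the least, all far below the vehicle mice (log2 difference -7.51 ± 0.54, adjusted p 5.11e-10). Cyp39a1, which acts on 24-hydroxycholesterol, fell from 403, 343, 421, 320.1 and 323 units to 69.1, 29.7, 13.7, 34.9 and 136 units, with LPS replicate 5 the highest. Nr0b2, the repressor SHP that FXR induces, was at 274, 232, 88.7, 187 and 259 units and 151, 291, 77.2, 191 and 83.3 units. These groups overlapped and Nr0b2 did not pass (log2 difference -0.47 ± 0.55, adjusted p 0.473), whereas Klb, which relays the repressive signal from the gut, fell in every LPS mouse.

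Cytochromes P450 of families 1 to 4 fell in 29 of 34 tested and rose in 2 (0 after median centring; median -0.97). Cyp2c38 fell from 357, 138, 122, 113 and 238 units to 35.1, 14.5, 12.4, 10.7 and 42.8 units. Cyp2e1, the alcohol-oxidising enzyme, fell by less, from 13816, 14079, 13698, 14102 and 14256 units to 10643, 11028, 11269, 10491 and 12054 units (log2 difference -0.34 ± 0.07, adjusted p 0.000274). Conjugating enzymes fell in 24 of 38 and rose in 2 (median -1.01). Sult1b1, a thyroid hormone and phenol sulfotransferase, fell 7.06-fold and Gsta3, a glutathione transferase, 3.77-fold. Sult1e1, the oestrogen sulfotransferase, was at 72.0, 41.2, 128, 61.8 and 58.1 units with vehicle and at 662, 424, 610.3, 429 and 1535 units with LPS. It rose in all 5 LPS mice against its family (9.63-fold, log2 difference 3.27 ± 0.43, adjusted p 1.69e-06). Near-identical P450 genes can share probe signal.

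The fall of glucose handling was steep at the membrane and small at the enzyme most used to mark fasting. Slc2a2, the hepatocyte glucose transporter GLUT2, was at 2353, 2484, 2893, 2503 and 2492 units with vehicle and at 90.9, 91.7, 42.8, 43.9 and 88.7 units with LPS. G6pc, which frees glucose from glucose 6-phosphate, fell from 1333, 2233, 1959, 2227 and 1902 units to 375, 271, 154, 314 and 427 units. Pck1, which starts gluconeogenesis from oxaloacetate, fell from 7136, 9410.1, 6905, 9003 and 8612 units to 5535, 5369.5, 5260.0, 4557 and 5681 units. All 3 were lower in every LPS mouse, with log2 differences of -5.24 ± 0.23 (adjusted p 3.34e-13), -2.71 ± 0.59 (adjusted p 0.000498) and -0.63 ± 0.13 (adjusted p 0.000339). Of 27 tested gluconeogenesis genes 15 fell and 5 rose (3 after median centring; median -0.47). Slc25a10, the dicarboxylate carrier, fell 5.08-fold. Ppargc1a, the coactivator of fasting, passed with overlapping groups, at 42.4, 35.7, 54.2, 47.1 and 35.8 units and 24.05, 8.01, 31.2, 28.2 and 39.3 units. The call of Ppargc1a was lost without vehicle replicate 3, without LPS replicate 2 and without both mice of high actin ratio, with adjusted p up to 0.0826.

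Glycogen genes fell in 9 of 16 tested and rose in 4 (median -0.76). Gys2, the liver glycogen synthase, was at 1917, 1961, 1974, 1885 and 1999.9 units with vehicle and at 491, 339.6, 233, 351 and 452 units with LPS. Pygl, the liver phosphorylase that degrades glycogen, fell from 3392, 3868, 3896, 3768 and 3753 units to 909.5, 1018, 814, 752 and 1108 units, a fold of 4.09-fold beside 5.39-fold for the synthase. Transcripts of the making and of the breaking enzyme were thus both lower. The targeting subunits Ppp1r3b and Ppp1r3c, which bring phosphatase to glycogen, fell 5.64-fold and 8.43-fold. Gyg, the protein primer of glycogen, rose from 114, 91.9, 104.8, 99.8 and 106 units to 327, 283, 311, 335 and 298 units (log2 difference 1.59 ± 0.13, adjusted p 3.45e-09).

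In glycolysis 10 of 18 tested rose and 5 fell (median 0.50), and the pyruvate kinase genes moved in opposite directions. Pklr, the liver isoenzyme, was at 228, 238, 330.4, 240.1 and 218 units with vehicle and at 35.2, 48.3, 17.5, 39.2 and 41.0 units with LPS. Pkm, the isoenzyme of muscle, immune and dividing cells, was at 11.6, 7.99, 8.10, 7.78 and 9.36 units and 165, 135, 188, 183 and 138 units. Both pairs of groups were apart (log2 difference -2.85 ± 0.34, adjusted p 4.71e-07 for Pklr; at least 9.998-fold for Pkm, adjusted p 1.41e-11). Pfkl, a phosphofructokinase, rose 2.95-fold. Pdk4, the kinase that shuts pyruvate out of the citric acid cycle, was at 10.3, 22.9, 16.01, 23.8 and 21.4 units with vehicle and at 37.1, 85.2, 153, 241 and 528 units with LPS. The LPS mice ranged from 37.1 to 528 units, all above the vehicle mice (log2 difference 2.99 ± 0.61, adjusted p 0.000285). Slc16a7, a pyruvate and lactate carrier, fell from 319, 229, 268, 233 and 297 units to 20.5, 10.7, 5.56, 11.1 and 33.2 units. Genes of the citric acid cycle, with pyruvate dehydrogenase, fell in 18 of 24 and rose in 1 (median -0.64), and respiratory complex I in 26 of 32 and complexes III to V in 24 of 32, with medians of -0.40 and -0.31 and no member 2-fold lower.

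**Figure D5:**
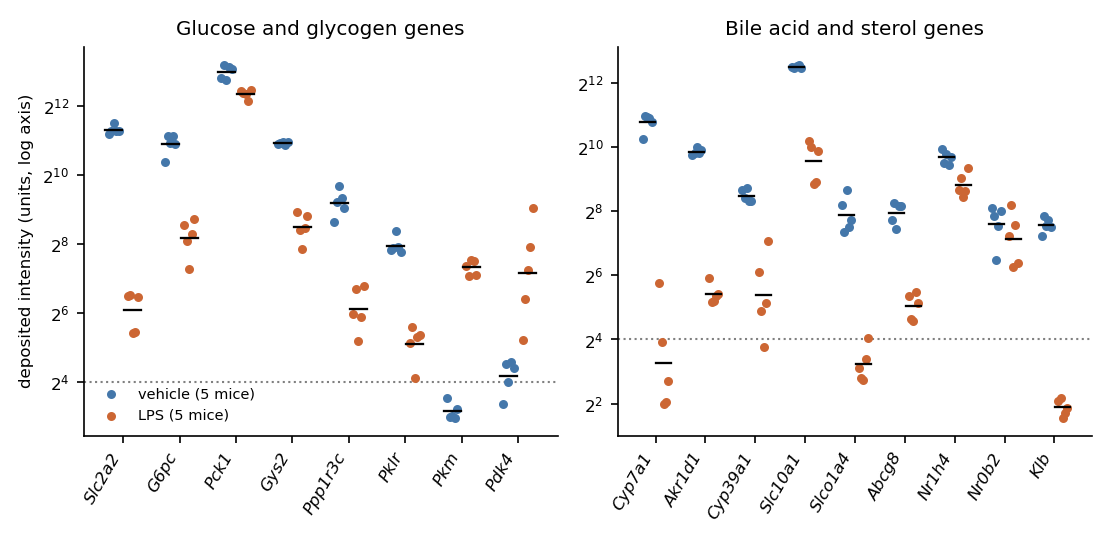
Intensity of each mouse on a log axis for genes of glucose, glycogen and pyruvate handling (left) and of bile acid synthesis, transport and control (right); blue points are the 5 vehicle mice, orange points the 5 LPS mice and black lines the means of log2 values. Slc2a2 and Cyp7a1 separate widely, Pkm and Pdk4 move up, and Nr0b2 overlaps.

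Amino acid breakdown fell in 35 of 44 tested and rose in 0 (median -1.06). Afmid, which acts in tryptophan breakdown, was at 848, 709, 524, 702 and 782 units with vehicle and at 40.0, 18.4, 26.5, 19.4 and 52.9 units with LPS (log2 difference -4.61 ± 0.35, adjusted p 9.98e-10). Auh, an enzyme of leucine breakdown, fell 4.90-fold. In the urea and ammonia list 14 of 25 fell and 5 rose (3 after median centring, and 3 without both mice of high actin ratio). Slc1a2, the glutamate importer of pericentral hepatocytes, fell from 1170.3, 543, 738, 559.6 and 766 units to 45.1, 38.2, 37.0, 26.7 and 91.7 units. Cps1, the first urea cycle enzyme, fell 2.18-fold, from 9299, 9029, 9888, 9580.5 and 9204 units to 4438, 4013, 4831, 3805 and 4583 units. Arg1, its last enzyme, was at 7281, 6930.1, 7939.7, 6984 and 7246 units and 8056, 7144, 7812, 7425 and 8047 units and did not pass, with a 95% interval of -0.08 to 0.25. Asns, which makes asparagine and answers amino acid shortage, rose from 39.8, 33.7, 10.2, 29.9 and 38.6 units to 418, 577, 375, 461 and 516 units. In methionine and one-carbon metabolism 15 of 23 fell and 3 rose: Cth, the cysteine-forming lyase, fell from 2194 to 373 units and Gamt, the creatine-forming enzyme, from 328 to 74.5.

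Lipid synthesis was split between sterols and fatty acids. Cholesterol synthesis and uptake rose in 16 of 26 tested and fell in 4 (median 1.04). Sqle, the squalene epoxidase, was at 22.6, 232, 204, 196 and 156 units with vehicle and at 1050.3, 1289, 1075, 952 and 425 units with LPS. Vehicle replicate 1 lay well below the other vehicle mice, and LPS replicate 5 was the lowest LPS mouse. The Sqle groups were still apart (log2 difference 2.83 ± 0.48, adjusted p 4.11e-05), but those of the whole list were not. The mean log2 level over the 27 list members on the array was 7.997 in LPS replicate 5, inside the vehicle range of 7.387 to 8.123. The other LPS mice lay at 8.694 to 9.029. All LPS mice lay above all vehicle mice in 9 of the 26 tested members. Mvd, which makes isopentenyl diphosphate, rose at least 4.04-fold, and Npc1, which releases lysosomal cholesterol, fell 2.41-fold. Fatty acid and triglyceride synthesis fell in 18 of 27 and rose in 3 (median -0.87). Elovl3 and Elovl6, elongases of long-chain fatty acids, fell 11.1-fold and 4.53-fold, while Elovl1, an elongase of very long chains, rose 2.37-fold. Srebf1, the factor behind fatty acid synthesis, fell from 174, 153, 149, 159 and 156 units to 61.6, 78.5, 44.5, 84.8 and 56.2 units.

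Genes that PPARalpha drives in the fasted liver did not move as 1 group. Of 21 tested, 10 fell and 8 rose. Acot1, a cytosolic acyl-CoA thioesterase, was at 355, 832, 238, 715 and 621 units with vehicle and at 16.6, 16.5, 15.7, 16.7 and 18.5 units with LPS. Its relatives Acot3 and Acot4 fell at least 9.77-fold and at least 3.62-fold, and vehicle replicates 1 and 3 were the lowest vehicle mice for each of these 3 genes. Cyp4a14, a fatty acid omega-hydroxylase, fell from 3825, 2374, 3333, 2458 and 3066 units to 627, 76.8, 184, 439 and 1333 units. Cidec, a lipid droplet protein that enlarges droplets, was at 6.02, 9.14, 13.8, 8.33 and 10.4 units with vehicle and at 436, 532, 361, 472 and 382 units with LPS, a rise of at least 27.0-fold. Cd36, a fatty acid importer, rose from 149.9, 22.6, 156, 28.7 and 99.6 units to 369, 438, 429, 357 and 724 units, and Plin2, a droplet coat protein, from 2594, 3249.9, 3686, 3459 and 2982 units to 6313, 7158, 8185, 8606 and 8418 units. The log2 differences were -4.90 ± 0.38 for Acot1, -3.08 ± 0.69 for Cyp4a14, 2.71 ± 0.49 for Cd36 and 1.28 ± 0.15 for Plin2, and these genes and Cidec each passed without overlap. Mitochondrial fatty acid oxidation fell in 17 of 21 and rose in 0 (median -0.49). Acadm, the gene that the MCAD-/- mice lack, was lower in every LPS mouse, at 3423, 3106, 4022, 3283 and 3271 units and 1842, 1883, 1663, 1449.9 and 2375 units. It did not pass in the fit of all 4 groups (log2 difference -0.91 ± 0.57, adjusted p 0.168), whose spread for this gene comes largely from MCAD-/- arrays, and passed with the wild type arrays fitted alone (adjusted p 0.000145).

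Growth hormone and IGF genes fell in 14 of 21 tested and rose in 0 (median -0.96). Ghr, the hormone receptor, was at 2964, 3276, 3577, 3254 and 3089 units with vehicle and at 1059.8, 1269, 1108, 866 and 865 units with LPS. Igf1 itself fell less, from 3000.5, 3686, 3401, 3644 and 3468 units to 2319, 3080.4, 3183, 2042 and 1987 units with overlapping groups (log2 difference -0.47 ± 0.13, against -1.66 ± 0.15 for Ghr). The steroid dehydrogenases Hsd3b2, Hsd3b3 and Hsd3b5, near-identical copies that may share signal, fell at least 10.5-fold, 28.0-fold and at least 75.8-fold. Hsd3b3 was at 54.8, 72.7, 42.5, 9.61 and 5.60 units in the LPS mice. LPS replicates 4 and 5 were the lowest for Hsd3b3, for Hsd3b5, at 9.73, 11.2, 10.9, 4.91 and 3.77 units, and for the male urinary protein gene Mup10, at 372, 448, 336, 72.9 and 68.4 units.

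Genes for making protein are described by group. Aminoacyl-tRNA synthetases rose in 18 of 21 tested and fell in 0 (median 0.92), all 18 without overlap, and the count was 18 after median centring too. Wars, which charges tryptophan tRNA and is an interferon target, rose from 18.003, 12.8, 10.8, 12.0 and 17.4 units to 98.2, 102, 119, 161 and 103 units, and Vars from 17.3, 14.2, 8.66, 13.3 and 19.1 units to 62.9, 62.2, 83.2, 131 and 101 units. Ribosome biogenesis factors rose in 27 of 36 and fell in 0 (median 0.69): Rrp12 rose 3.35-fold and Nop2 2.80-fold. Cytosolic ribosomal proteins rose in 29 of 41 by little (median 0.29), 14 after median centring. Mitochondrial ribosomal proteins, with 27 rises and 13 falls of 73, turned to 14 and 22 after centring and so have no stable direction.

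Stress programmes of the cell were raised in part. In the integrated stress response 12 of 18 rose and 1 fell (median 1.01), and 0 fell without both mice of high actin ratio. Ddit3, the factor CHOP, was at 38.6, 35.5, 23.7, 40.1 and 35.6 units with vehicle and at 391, 406, 416, 421 and 309 units with LPS. Nupr1, a stress-induced chromatin protein, rose at least 5.79-fold, at 77.7, 104, 277, 124 and 24.5 units in the LPS mice, with replicate 3 the highest and replicate 5 the lowest. Atf4, the factor upstream of both, rose 2.11-fold, from 336, 396, 297, 344 and 318 units to 580.3, 555, 834, 971 and 691 units. ER chaperones rose in 22 of 39 and fell in 4 (18 and 6 after median centring). Hspa5, the chaperone BiP, rose from 5865, 4977, 6163, 5258 and 5171 units to 8294, 7544, 8363, 8024 and 9079.6 units, a log2 difference of 0.59 ± 0.10 beside 3.50 ± 0.19 for Ddit3. Heat shock proteins rose in 7 of 19 and fell in 4, near the shares of all tested genes, and 6 rose and 6 fell after median centring. Hsp90aa1 rose 2.29-fold and Fkbp4, a co-chaperone of HSP90, fell 3.30-fold.

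Growth arrest and proliferation genes both held rises. Of 20 tested growth arrest genes and p53 targets, 9 rose and 0 fell (median 0.34). Their share of rises, 45.0%, was near the 40.0% of all tested genes. Cdkn1a, the cell cycle inhibitor p21, was at 10.02, 53.01, 22.96, 36.3 and 23.3 units with vehicle and at 333, 593, 767, 957 and 905 units with LPS (log2 difference 4.72 ± 0.41, adjusted p 8.44e-09). Phlda3, a p53 target that dampens AKT, rose at least 5.67-fold and Gadd45g, a stress sensor, 5.11-fold. Of 11 tested proliferation genes 7 rose and 2 fell (11 and 3 of 27 without the filter on dim genes), while 16 of the 28 listed stayed under the floor. Mcm5 and Mcm6, parts of the replicative helicase, rose to 22.99 and 44.7 units on average. Tk1, thymidine kinase, fell from 39.2, 65.6, 26.7, 67.4 and 58.6 units to 5.73, 5.10, 3.86, 3.94 and 3.94 units. Rrm2, a subunit of ribonucleotide reductase, fell from 17.8, 42.6, 267, 68.7 and 31.7 units to 12.9, 6.24, 5.64, 6.31 and 5.99 units, with vehicle replicate 3 well above its group.

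Immediate early genes, which usually peak within an hour of a stimulus, were raised in 15 of 23 tested and lowered in 3 (median 1.11). After median centring 13 were raised and 5 lowered. With 1 time point, a rise that lasted and a rise that came later cannot be told apart. Ier3, a survival gene under NF-kappaB control, was at 7.80, 6.03, 7.98, 6.74 and 5.18 units with vehicle and at 313, 245, 799, 391 and 415 units with LPS, at least 24.9-fold. Zfp36l2, which destabilises mRNA, fell from 381, 247, 308, 239 and 328 units to 162, 143, 156, 149 and 184 units. Genes of the circadian clock fell in 7 of 16 and rose in 2 (0 after median centring). Usp2, a clock-controlled deubiquitinase, fell from 431, 540.2, 221, 503 and 491 units to 39.2, 38.2, 17.3, 28.5 and 9.50 units. Dbp, a clock output factor, was at 1122, 1061, 591, 1011 and 1038 units and 749, 334, 195, 217 and 65.9 units, where LPS replicate 1 overlapped the vehicle mice (log2 difference -2.01 ± 0.44, adjusted p 0.000483). Among antioxidant genes 14 of 31 rose (45.2%) and 9 fell (29.0%), near the shares of all tested genes. After median centring 13 rose and 11 fell. Gpx3, the plasma glutathione peroxidase, rose 11.2-fold as fitted, Cybb and Cyba, the membrane subunits of the phagocyte oxidase, rose 6.74-fold and 5.71-fold, and Me1, which makes NADPH, fell 2.45-fold. Like the oxidase genes, all 7 tested neutrophil markers rose, while 9 of 15 Kupffer cell and macrophage markers fell and 1 rose. The part of these phagocytes was not tested.

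LPS mice differed among themselves somewhat more than vehicle mice. The median SD of log2 values was 0.25 among LPS mice and 0.22 among vehicle mice, and 59.7% of genes had the larger SD with LPS. Genes that varied most with LPS, among those over 16 units in all 5 LPS mice, were chosen by that spread and are described without a test. Pdk4, Reg3g, Cyp4a14 and Mup10 were among them. Lepr, the leptin receptor, was at 156, 20.7, 45.2, 19.0 and 84.1 units with vehicle and 255, 53.5, 190.1, 298 and 637 units with LPS, with replicate 5 highest and replicate 2 lowest. Pttg1, securin, was at 584, 53.5, 464, 101 and 252 units and 411, 30.7, 35.6, 32.3 and 32.3 units, with replicate 1 the highest in both groups. Stat2, a partner in interferon signalling, was at 146, 151, 94.4, 16.8 and 78.5 units with LPS, with replicate 4, the mouse with the high actin ratio, lowest. Its rise passed without that mouse (adjusted p no higher than 0.0401) and not with it.

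Genes often used as references were not constant. Of 12 tested, 7 rose and 2 fell (median 0.39; 6 and 3 after median centring). Actb, beta-actin, was at 4062, 4971, 1818, 4266 and 4860.5 units with vehicle and at 6323, 7840.4, 7236, 4253 and 7997 units with LPS, and its lowest vehicle mouse was replicate 3 and its lowest LPS mouse replicate 4, the mice with high actin ratios. Tubb5, a tubulin, rose 4.15-fold. Tbp, a basal transcription factor, was at 25.6, 36.9, 30.5, 39.7 and 35.4 units and 37.4, 30.1, 24.1, 20.0 and 27.1 units and did not pass (log2 difference -0.29 ± 0.18, adjusted p 0.154). It passed as lower without LPS replicate 1 and after either further normalization, with adjusted p 0.0226 to 0.0491.

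The same treatment in MCAD-/- mice moved nearly all of these genes the same way. Of the 2008 genes at least 2-fold changed in wild type, 1980 had the same sign in MCAD-/-, and of the 5614 genes that passed, 4576 passed there in the same direction; the 2 comparisons share no mice. The response itself differed between genotypes in 361 genes (4.11%), of which 255 also passed in wild type. Of these 255 genes, 104 changed more in wild type and 93 less with the same sign, and 58 had opposite signs. Among sinusoidal endothelial markers the response differed in 9 of 17 tested, against 4.11% of all tested genes. Cidec went from 9.18 to 432 units on average in wild type and from 6.60 to 15.5 units in MCAD-/- (interaction -4.32 ± 0.44 on the log2 scale, a size that depends on vehicle values under the floor). Myom2, a muscle M-band protein, fell from 357 to 13.9 units in wild type and lay at 2.97 and 2.92 units in MCAD-/- mice under vehicle and LPS. Nr0b2, which did not pass in wild type, fell from 218 to 15.9 units in MCAD-/- (interaction -3.31 ± 0.78, adjusted p 0.0187). A2m rose more in MCAD-/-, to 6967 units, and Phlda3 less, to 19.8 units. Xaf1, a gene singled out after its values were seen, rose from 117, 74.7, 81.4, 66.0 and 90.02 units to 674, 649, 853, 809 and 579.9 units in wild type, a log2 difference of 3.07 ± 0.17, beside 0.39 in MCAD-/-.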

How the data were processed

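Liver RNA of 20 male mice, 5 in each of 4 groups and 1 array per mouse, was hybridised to single-channel Affymetrix mouse arrays. The deposited table holds intensities of 45101 probe sets on a linear scale, made by the authors with GCRMA per the submitters' processing notes. GCRMA subtracts background, scales the arrays to each other and joins the probes of a set, with a version and options not given in the sources used here. Differences are therefore relative to the whole array. Groups and replicate numbers came from the sample titles, and the number of mice limits the precision.

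Values were taken to log2 without a pseudocount. Through the platform's annotation 34945 probe sets had 1 gene symbol; 932 with several, 9160 not listed and 64 controls were left out of gene tests. By gene ID 34741 matched RefSeq (GRCm38.p6), with 0 symbols changed. For each of 18193 genes the probe set with the highest mean over the 20 arrays was used, and 8774 genes over 16 units on at least 5 arrays were tested. One model of the 4 groups was fitted with limma 3.58.1 in R 4.3.3, and each adjusted p is a two-sided Benjamini-Hochberg value over these genes, with a threshold of 0.05. The interaction is the MCAD-/- response minus the wild type response. The calculation was tested on simulated data with known changes. Promoters came from RefSeq, with 27025 genes on GRCm38.p6, of which 7211 were tested genes. Of 32851 promoter windows, the first listed for each gene was used.

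The comparison, the gene lists and the genes followed were chosen with earlier results of these data known. The rule named, among genes that passed without overlap, the 20 that rose most and the 20 that fell most, up to 3 members of each list with the largest difference and 1 that went the other way, a fixed panel, 10 genes each that crossed 16 units upwards or downwards, and 8 that varied most among LPS mice. Another 26 tested genes, and the untested cell type markers named as dim, were named after their values were seen: Abcb11, Abcb1b, Acod1, Adgre1, Atf4, B2m, Cd36, Cxcl10, Cxcl12, H2-Aa, H2-Ab1, Iigp1, Lcn2, Lifr, Ly96, Lyz2, Myd88, Ngp, Orm2, Plin2, Pygl, Rela, Rrm2, Thbd, Tmprss6 and Xaf1. Alternatives were a replicate block, a filter at 64 units or none, averaged probe sets per gene, median centring, further quantile normalization, a trended robust prior, array weights, the wild type arrays alone, each wild type mouse left out in turn, and both mice of high actin ratio left out together.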

Additional observations from a re-analysis of the deposited data

Results flagged for a closer look

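Of 430 groups of 5 mice, 2 for each of the 215 tested genes named in the text, 37 held 1 mouse far from the other 4 (23 vehicle and 14 LPS groups), where chance alone gives about 1 in 20 groups. A mouse is listed where its gap to the nearest other mouse, divided by the range of its group, exceeded 0.71. Each value is followed by that of the nearest mouse, both in units. Vehicle replicate 3, a mouse with a high actin ratio, accounted for the most of these values. Vehicle replicate 3 was the lowest of its group for Actb at 1818 (nearest 4062), Asns at 10.2 (nearest 29.9), Dbp at 591 (nearest 1011), Ddit3 at 23.7 (nearest 35.5), Gabarapl1 at 1150.0 (nearest 1631), Lbp at 954 (nearest 1705), Lrp10 at 183 (nearest 271), Nop2 at 38.1 (nearest 71.0), Nr1i3 at 345 (nearest 524), Ppara at 888 (nearest 1272), Slc25a10 at 230.0 (nearest 351) and Usp2 at 221 (nearest 431). Vehicle replicate 3 was the highest of its group for Abcb11 at 1867 (nearest 1608), Mmp8 at 3.97 (nearest 3.35), Onecut2 at 512 (nearest 375), Pklr at 330.4 (nearest 240.1) and Reg3g at 3.34 (nearest 2.42). Vehicle replicate 1 was the lowest of its group for Cyp7a1 at 1236 (nearest 1787), Hsd3b5 at 647 (nearest 1252), Pygl at 3392 (nearest 3753) and Sqle at 22.6 (nearest 156). Vehicle replicate 1 was the highest of its group for Irf7 at 31.4 (nearest 18.5) and Syt1 at 154 (nearest 127). LPS replicate 1 was the lowest of its group for Saa3 at 14000.0 (nearest 14665). LPS replicate 1 was the highest of its group for Colec11 at 137 (nearest 72.9), Cyba at 145 (nearest 95.2), Pdgfrb at 51.3 (nearest 40.3), Pttg1 at 411 (nearest 35.6), Rrm2 at 12.9 (nearest 6.31) and Vsig4 at 7.36 (nearest 4.81). LPS replicate 2 was the highest of its group for Myom2 at 57.2 (nearest 12.4). LPS replicate 4 was the highest of its group for Cpne8 at 1165 (nearest 824) and Psmc4 at 1156 (nearest 855). LPS replicate 5 was the lowest of its group for Crybb3 at 232 (nearest 607), Ddit3 at 309 (nearest 391) and Sqle at 425 (nearest 952). LPS replicate 5 was the highest of its group for Cd36 at 724 (nearest 438).

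The response to LPS differed between wild type and MCAD-/- mice for 22 of the named genes by the interaction term of the limma fit, with adjusted p from 8.14e-07 to 0.0463. Each value is the MCAD-/- log2 response minus the wild type one, followed by the log2 response of each genotype. Responses that involve levels under 16 units depend on the floor, as for Myom2 in MCAD-/-. Rises that were smaller in MCAD-/- were those of Cidec at -4.32 (5.56 in wild type, 1.23 in MCAD-/-), Cxcl13 at -2.11 (5.41 in wild type, 3.30 in MCAD-/-), Cyba at -1.16 (2.51 in wild type, 1.35 in MCAD-/-), Gbp2b at -1.86 (8.44 in wild type, 6.58 in MCAD-/-), Irf7 at -0.92 (5.08 in wild type, 4.16 in MCAD-/-), Oasl2 at -1.73 (6.25 in wild type, 4.53 in MCAD-/-), Phlda3 at -2.55 (3.67 in wild type, 1.12 in MCAD-/-), Procr at -1.21 (4.03 in wild type, 2.82 in MCAD-/-), Slc13a5 at -1.54 (6.19 in wild type, 4.65 in MCAD-/-), Tubb5 at -1.15 (2.05 in wild type, 0.90 in MCAD-/-) and Xaf1 at -2.68 (3.07 in wild type, 0.39 in MCAD-/-). Rises that were larger in MCAD-/- were those of A2m at 3.43 (6.20 in wild type, 9.64 in MCAD-/-) and Slc30a10 at 2.78 (1.55 in wild type, 4.34 in MCAD-/-). Differences that were more negative in MCAD-/- were those of Clec4g at -1.95 (-3.75 in wild type, -5.71 in MCAD-/-), Ghr at -0.85 (-1.66 in wild type, -2.51 in MCAD-/-), Gys2 at -1.22 (-2.43 in wild type, -3.65 in MCAD-/-), Hsd3b2 at -1.46 (-5.60 in wild type, -7.06 in MCAD-/-), Nr0b2 at -3.31 (-0.47 in wild type, -3.78 in MCAD-/-) and Usp2 at -1.64 (-4.16 in wild type, -5.80 in MCAD-/-). The remaining values were those of Myom2 at 4.66 (-4.69 in wild type, -0.02 in MCAD-/-), Pdgfrb at -1.63 (0.72 in wild type, -0.91 in MCAD-/-) and Vcam1 at -1.29 (0.49 in wild type, -0.80 in MCAD-/-).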

How the results depend on the processing

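Of the 215 tested genes named in the text, 13 changed their call in at least 1 of 20 alternative settings and 0 changed direction where called; those on which a statement rests stand beside their values above. At least 2-fold rises numbered 816 with averaged probe sets and 740 with the filter at 64 units, against 1235, which follows in part from fewer genes tested. Genes whose response differed between genotypes numbered 879 with array weights and 236 with the filter at 64 units, against 361, and the cause of the first was not tested. Leaving out each of the 10 mice in turn gave 3301 to 3493 genes higher, 1964 to 2114 lower, 1190 to 1264 at least 2-fold higher, 744 to 805 at least 2-fold lower and 262 to 468 that differed between genotypes. The share of calls that were rises, 62.5%, was 50.9% after median centring, 57.5% after quantile normalization and 57.9% to 58.6% with the stricter filter, no filter or mean of probe sets. Of 5614 calls, 4867 were shared after median centring and 4320 with the mean of probe sets, where 22 had the opposite sign. For 43 of 66 lists the count of rises or that of falls moved by over 1.5 times in some alternative, changes of 1 member included, and for 19 the larger of the 2 counts did; median centring moved a count in 21 lists.

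With the replicate number as a block the counts were 3505 higher, 2114 lower, 1234 and 773 at least 2-fold higher and lower, and 384 that differed between genotypes. The numbers were not taken to pair the mice: deviations of mice with the same number correlated at -0.12, 0.23, 0.03, -0.02 and -0.02 over genes, and not every mouse correlated best with its own number. The fit of the wild type arrays alone cannot give a difference between genotypes.

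Limits: 1 time point, males alone, 5 mice a group, intensities in which dim genes sit at a floor, and no measure of cell number. Whether the brightest probe sets, such as those of Alb and Saa1, were compressed at the top of the scale was not tested. Copies of near-identical genes can share probes, and strain background is mixed.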

Other observations

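Lipoprotein assembly, peroxisomes, autophagy and metal binding are gene groups not described above. Apolipoproteins and genes of lipoprotein assembly fell in 12 of 25 tested and rose in 4 (2 after median centring; median -0.24). Mttp, which loads lipid onto apolipoprotein B, was at 1262, 1535, 1887, 1537 and 1454 units with vehicle and at 772, 717, 628, 750.3 and 895 units with LPS. Apoc4, a plasma apolipoprotein, fell 1.60-fold and Lrp10, a receptor of the LDL receptor family, rose 2.51-fold, each without overlap between the groups. Peroxisomal fatty acid oxidation fell in 11 of 24 tested and rose in 2 (0 after median centring). Pecr, a peroxisomal enoyl-CoA reductase, fell from 2076, 2349, 2189, 2282 and 2319.6 units to 638, 812, 553, 549.9 and 649 units (log2 difference -1.82 ± 0.15, adjusted p 4.14e-09).

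Autophagy and lysosome genes were evenly divided, with 10 of 31 tested higher and 10 lower, and 6 higher and 13 lower after median centring, so the balance depends on the scaling. Members of 1 family of autophagosome proteins moved apart: Map1lc3b, which encodes an LC3 protein, rose from 2686, 2824, 2116, 2479 and 2883 units to 5134, 4597, 4097, 3882 and 4379.8 units, and its relative Gabarapl1 fell from 1745, 1733, 1150.0, 1631 and 1812 units to 1014, 1028, 841, 764 and 962 units. Neither pair of groups overlapped (log2 differences 0.77 ± 0.11 and -0.80 ± 0.16, adjusted p 7.41e-06 and 0.000269). Of 13 tested genes of metallothioneins and metal carriers 5 rose and 4 fell (2 and 6 after median centring), near the shares of all tested genes. Mt2, a metallothionein that buffers zinc and copper, was bright with vehicle already and rose 1.33-fold with overlapping groups, at 9324, 6991, 6726, 7085 and 8430.1 units and 9297, 10405, 10564, 10063 and 10719 units. Hmox1, which breaks down haem, rose from 21.9, 20.2, 14.1, 13.7 and 18.7 units to 55.8, 39.1, 53.5, 27.0 and 44.3 units. Nos2, the inducible nitric oxide synthase, was at 2.70, 2.22, 2.61, 2.83 and 2.86 units in the LPS mice, under 16 units in all 10 mice, and was not tested. The clock gene Arntl was under 16 units in all but LPS replicate 5, and Per3, another clock gene, fell at least 1.25-fold, from 22.97, 16.6, 19.6, 18.2 and 23.04 units to 9.05, 8.18, 6.36, 5.96 and 4.99 units.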
